A study of Homo sapiens with 4 samples.

Results

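SOX factors are transcription factors that bind DNA through a high-mobility-group box, and 9 of them that act in neural and glial lineages were examined here: SOX2, SOX4, SOX5, SOX6, SOX8, SOX10, SOX11, SOX12 and SOX13. Transcripts of SH-SY5Y, a neuroblastoma line of sympathetic and neuronal character, were measured on Affymetrix arrays. The members were all probe sets whose platform annotation named exactly 1 gene, that gene being one of the 9. This gave all 9 genes of 19775 on the array, with 33 probe sets of the 41091 that had a single gene symbol. The control cells had received a control siRNA, and the other cells an siRNA against LSD1, the histone lysine demethylase encoded by KDM1A. Each group had 2 arrays, called siControl and siLSD1 with their replicate number. The submitters' design text describes them as separate transfections of the line, so that p-values measured the spread between transfections. The sources used here give neither the time from transfection to harvest nor the siRNA sequences. The question was how the SOX transcripts of neuroblastoma cells stand after LSD1 is reduced.

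SOX proteins are grouped by the similarity of their DNA-binding box. SOX2, of the SOXB1 group, maintains stem and progenitor cells of the nervous system. SOX4, SOX11 and SOX12 form the SOXC group, which is active in developing neurons, and SOX4 and SOX11 promote the expression of neuronal genes and are abundant in sympathetic precursors. SOX5, SOX6 and SOX13 form the SOXD group. They lack an activation domain of their own, pair through a coiled coil and modulate the work of other factors. SOX8 and SOX10 belong to the SOXE group of the neural crest, where SOX10 is needed for glia and pigment cells.

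Signals are given as log2 values of quantile-normalized arrays, replicate 1 before replicate 2, and all differences are siLSD1 minus siControl. The signal of one probe set says nothing about the level of another, because probes differ in how brightly they bind. A probe set was tested where its mean over the 4 arrays was at or above 3.62, the 40th percentile of the probe sets with a single symbol. Of the 33 SOX probe sets 16 passed, from 7 genes. SOX8 and SOX10 had none that did. The sources used here hold no detection calls. The arrays correlated with each other at 0.944 to 0.971 over the tested probe sets. The siControl replicate 1 array stood apart, with no correlation above 0.947, while the other 3 arrays correlated at 0.962 or more.

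KDM1A, the target of the siRNA, checked the labels. Its signal was 9.79 and 9.78 with siControl and 8.40 and 8.54 with siLSD1. The siLSD1 readings were both below the siControl readings, and the transcript stood at 40.04% of its control level. The difference of -1.32 (95% interval -1.70 to -0.94) had the smallest p of all 24655 tested probe sets, but the adjusted p in limma was 0.994 and did not pass the threshold of 0.05.

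No SOX probe set passed the test. In limma 0 of 16 had an adjusted p under 0.05, and 0% of all 24655 tested probe sets did. At an unadjusted p under 0.05 limma gave 3 of the 16, all higher in siLSD1 cells, and 818 probe sets over the whole table, or 3.32%. Of all tested probe sets 1.85% were higher and 1.46% lower at that level. The 3 were SOX11 204913_s_at and 204914_s_at and SOX4 201417_at. This count depended on the setting. It was 0 under the deposited scaling and 0 without the mean-variance trend, where the unadjusted p of these probe sets was 0.278, 0.316 and 0.23 in limma. It was 1 without the filter, where SOX4 201417_at was left. Under median centring it was 4, with SOX11 204915_s_at added to the 3. Without siControl replicate 2 SOX4 201416_at and 201418_s_at differed by -0.38 and -0.55, and 201417_at by 0.41. Without siControl replicate 1 these 3 SOX4 probe sets differed by -0.13, 0.42 and 0.18. The SOX11 differences without siControl replicate 2 were 0.25, 0.17 and 0.24. The adjusted p of the 16 ran from 0.994 to 0.999 in limma.

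The differences among the SOX probe sets were small. Means were higher in siLSD1 cells for 10 of the 16 and lower for 6, beside 49.4% and 50.6% of all tested probe sets, and differences ran from -0.29 to 0.53 on the log2 scale. None reached 2-fold, while 3.21% of all tested probe sets did. The median difference was 0.20 (0.14 under the deposited scaling), beside -0.0043 over all tested probe sets, and the median size regardless of sign was 0.25 beside 0.21. Both groups were fully separated for 9 of the 16, with 8 higher and 1 lower in siLSD1 cells, where 32.3% of all tested probe sets were separated. Higher separated values were found in 16.1% and lower ones in 16.1% of the table. Probe sets of 1 gene are readings of the same gene on the same arrays, so these counts are not independent observations. In RNA from whole cultures, fewer cells that express a gene and less RNA per cell cannot be told apart.

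**Figure D1:**
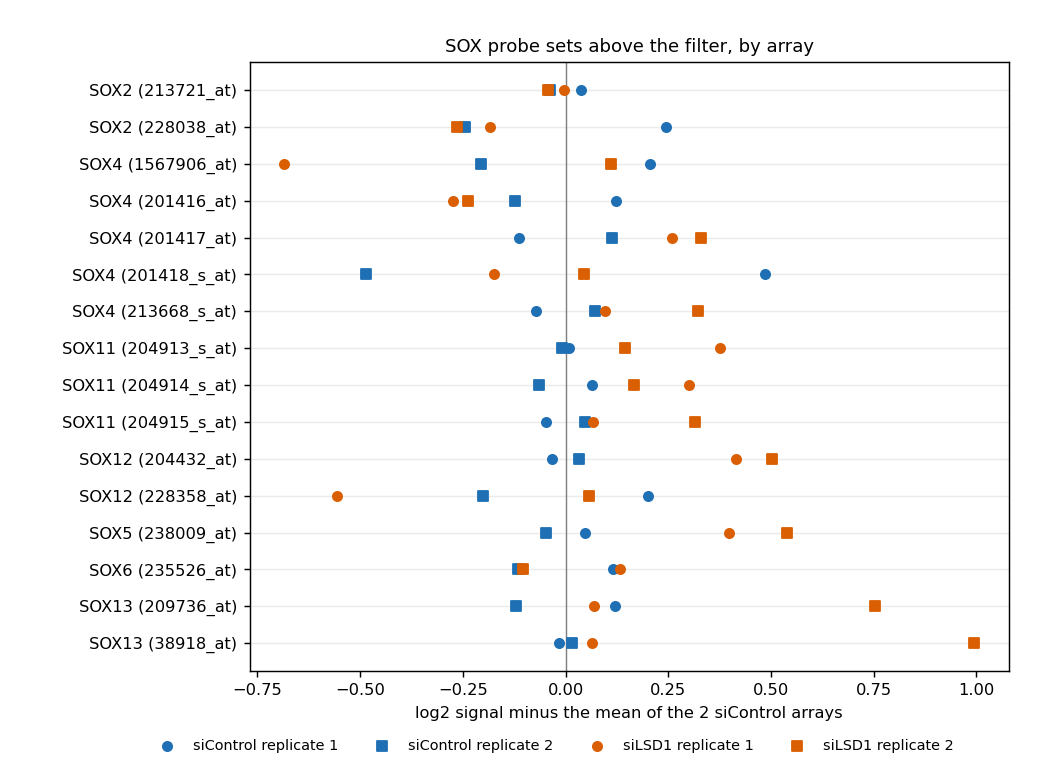
Log2 signal of the 16 SOX probe sets above the filter on each array, as the difference from the mean of the 2 siControl arrays (horizontal axis, log2 units), with 1 row per probe set. Circles are replicate 1 and squares replicate 2, siControl in blue and siLSD1 in orange. All 3 rows of SOX11 have both orange points to the right of both blue points, and the rows of SOX4 point in different directions.

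The median deviation of the 16, taken from each probe set's own mean, came to -0.069 and -0.13 with siControl and -0.019 and 0.18 with siLSD1. The siLSD1 replicate 2 array thus held most of the difference. It gave the highest of the 4 values for 7 of the 16, siControl replicate 1 gave the highest for 6, siLSD1 replicate 1 for 3 and siControl replicate 2 for 0. Without siLSD1 replicate 2 the median difference was 0.067 in place of 0.20.

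**Figure D2:**
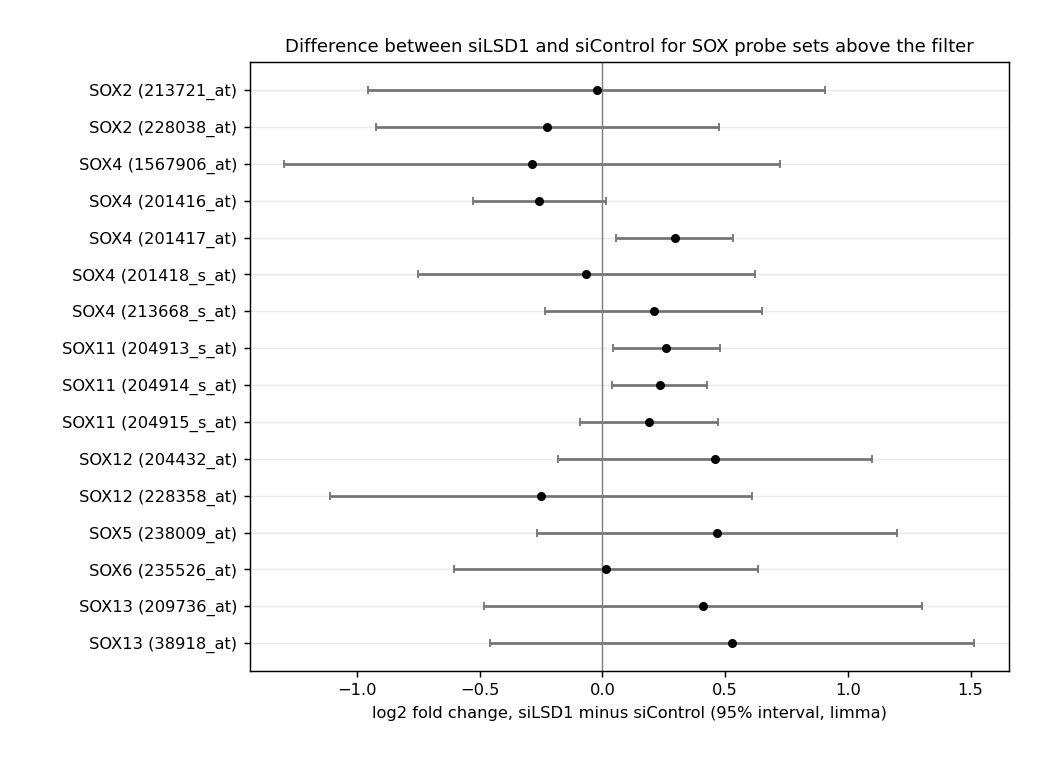
Log2 fold change of the 16 SOX probe sets above the filter, siLSD1 minus siControl, with 95% intervals from limma (points and bars, 1 row per probe set, 2 arrays per group). The intervals of 13 of the 16 include 0, and those of SOX4 201417_at, SOX11 204913_s_at and SOX11 204914_s_at lie above it before any adjustment for the number of probe sets tested.

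SOX11, a SOXC factor of immature neurons, read higher after LSD1 siRNA in all 3 of its probe sets, each by a small margin that did not pass the test. All 3 were bright enough to test. Their names end in _s_at, the suffix for probes that match more than 1 transcript sequence, here all annotated to SOX11. Probe set 204913_s_at read 11.34 and 11.32 with siControl and 11.70 and 11.47 with siLSD1. Probe set 204914_s_at read 11.54 and 11.41, then 11.78 and 11.64. Probe set 204915_s_at read 10.46 and 10.56, then 10.57 and 10.82. The last pair of groups almost touched, with siLSD1 replicate 1 only just above siControl replicate 2.

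In fold terms SOX11 was 1.20-fold higher by 204913_s_at (11.33 ± 0.01 against 11.59 ± 0.16, SD, n = 2), with limits of 1.03-fold and 1.39-fold. It was 1.18-fold higher by 204914_s_at (11.48 ± 0.09 against 11.71 ± 0.09, SD, n = 2), with limits of 1.03-fold and 1.34-fold. By 204915_s_at it was 1.14-fold higher, and the limits of 0.94 and 1.39 included no difference. The unadjusted p in limma was 0.0257, 0.0249 and 0.153, and the adjusted p 0.994 for each. Of the 3059 genes with at least 3 tested probe sets, 317 had a higher mean in all of them, or 10.4%, and 9 had all of them separated and higher, or 0.294%. These counts were made after the SOX11 values were seen. They include genes with more than 3 tested probe sets, and the share among genes with exactly 3, like SOX11, was not counted. Because the groups were separated in all 3 SOX11 probe sets, leaving out 1 array could not turn the sign of a difference. The differences then ranged from 0.14 to 0.38 for 204913_s_at, from 0.17 to 0.30 for 204914_s_at and from 0.066 to 0.32 for 204915_s_at. Under the deposited scaling they were 0.18, 0.13 and 0.14, where no SOX probe set had an unadjusted p under 0.05 in limma.

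The probe sets whose profile over the 4 arrays lay closest to that of 204914_s_at, the SOX probe set with the highest mean, belonged to MAST4, QSOX1 and EIF2S3. Closeness was the Euclidean distance between the 4 log2 values after each probe set's mean was taken off, and it was 0.02 for MAST4, 0.02 for QSOX1 and 0.02 for EIF2S3. MAST4 is a serine/threonine kinase of the microtubule-associated family, QSOX1 an enzyme that forms disulfide bonds and EIF2S3 a subunit of translation initiation factor 2. Their differences were 0.24, 0.23 and 0.24, with unadjusted p values in limma of 0.397, 0.571 and 0.127. Differences near that of 204914_s_at follow from how these genes were picked. With 4 arrays such likeness is a description of these arrays only.

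SOX4, the closest relative of SOX11, gave readings in opposite directions. It had 6 probe sets, of which 5 were tested, with 2 higher and 3 lower means in siLSD1 cells. Probe set 201417_at read 10.83 and 11.06 with siControl and 11.20 and 11.27 with siLSD1, a difference of 0.29 (95% interval 0.05 to 0.53). Probe set 201416_at read 10.90 and 10.65 with siControl and 10.50 and 10.54 with siLSD1, a difference of -0.26 (95% interval -0.53 to 0.02). The groups were separated in both probe sets, upward in the first and downward in the second. The unadjusted p in limma was 0.0227 for 201417_at and 0.061 for 201416_at, and the adjusted p 0.994 for both.

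In both of these SOX4 probe sets siControl replicate 1 was the array farthest from the siLSD1 arrays. Without it the differences were 0.18 and -0.13. Both kept their sign under the deposited scaling, at 0.22 and -0.30, and under median centring, at 0.39 and -0.13. Separated values in both directions within 1 gene were found in 518 of the 3059 genes with at least 3 tested probe sets, or 16.9%, so the pattern of SOX4 was a frequent one on these arrays.

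The other SOX4 probe sets did not settle the direction. Probe set 213668_s_at read 8.57 and 8.71 with siControl and 8.73 and 8.96 with siLSD1, a separated difference of 0.21 (95% interval -0.23 to 0.65). Probe set 201418_s_at read 10.19 and 9.22, then 9.53 and 9.75. Both siLSD1 values lay between the siControl values, which were far apart. The difference of -0.065 became 0.42 without siControl replicate 1, -0.55 without siControl replicate 2 and 0.044 without siLSD1 replicate 1. Probe set 1567906_at read 4.97 and 4.56, then 4.08 and 4.87, with overlapping groups and a difference of -0.29 that became 0.11 without siLSD1 replicate 1. Probe set 213665_at was below the filter, at 1.76 and 4.33 with siControl and 2.45 and 3.40 with siLSD1.

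SOX12, the third SOXC gene, also had probe sets that disagreed. Probe set 204432_at read 5.91 and 5.98 with siControl (mean 5.94 ± 0.05, SD, n = 2) and 6.36 and 6.45 with siLSD1 (6.40 ± 0.06, SD, n = 2). The groups were separated, with siLSD1 1.37-fold higher, and the log2 differences of the arrays with the same number were 0.45 and 0.47. The moderated test, which borrows spread from probe sets of like signal, gave a 95% interval from -0.18 to 1.10 and an unadjusted p of 0.134 in limma (adjusted p 0.994). Leaving out any 1 array gave 0.42 to 0.50. Probe set 228358_at read 5.62 and 5.21, then 4.86 and 5.47. Its groups overlapped, and its difference of -0.25 (95% interval -1.11 to 0.61) became 0.057 without siLSD1 replicate 1.

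Of the SOXD genes, SOX5 had a single probe set above the filter. This probe set, 238009_at, read 5.13 and 5.03 with siControl (5.08 ± 0.07, SD, n = 2) and 5.48 and 5.62 with siLSD1 (5.55 ± 0.10, SD, n = 2). Both siLSD1 arrays were higher, by 1.38-fold, with limits of 0.83 and 2.30 and an unadjusted p of 0.176 in limma (adjusted p 0.994). Without any 1 array the difference lay between 0.40 and 0.54 on the log2 scale.

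The SOX5 probe sets below the filter did not follow it as a group. Probe set 1569638_at read 1.77 and -0.38 with siControl and 2.54 and 1.85 with siLSD1. Probe set 207336_at read 1.74 and -0.01, then 0.15 and -0.06. Probe set 238285_at read 3.13 and 3.08, then 1.49 and 2.87. The first was thus higher and the last lower on both siLSD1 arrays, and the groups of 207336_at overlapped.

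SOX6, which often acts with SOX5, had 8 probe sets and 1 above the filter. Probe set 235526_at read 6.98 and 6.74 with siControl and 6.99 and 6.76 with siLSD1. The groups overlapped almost exactly, with means of 6.86 ± 0.16 and 6.88 ± 0.17 (SD, n = 2). The difference was 0.015, and the 95% interval reached from -0.60 to 0.63, that is from 0.66-fold to 1.55-fold, so a change of moderate size was not detectable with these arrays.

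The 7 SOX6 probe sets below the filter scattered between -2.28 and 5.38. Their differences ran from -2.10 to 2.12. Probe set 227497_at read 0.25 and 2.81 with siControl and 3.81 and 3.50 with siLSD1, and its difference of 2.12 became 0.84 without siControl replicate 1. Probe set 227498_at read 2.85 and 1.28, then 2.87 and 3.43, and its difference of 1.09 became 0.30 without siControl replicate 2. Probe set 1570486_at read 2.03 and 2.62, then -2.28 and 2.73, so that a single array set its difference of -2.10. In 228214_at siControl replicate 1 read 5.38 and siControl replicate 2 read 1.19, a wider gap than that between any siLSD1 array and either of them. The groups of 1563454_at, 223865_at and 224178_s_at overlapped as well.

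SOX13, the remaining SOXD gene, had 2 probe sets above the filter that shared their pattern. Probe set 38918_at read 4.56 and 4.59 with siControl and 4.64 and 5.57 with siLSD1. Probe set 209736_at read 4.92 and 4.68, then 4.87 and 5.55. In both, siLSD1 replicate 2 was high and the other 3 arrays lay close together. The differences were 0.53 (95% interval -0.46 to 1.52) and 0.41 (-0.48 to 1.30), and without siLSD1 replicate 2 they were 0.064 and 0.069. The third SOX13 probe set, 1569111_at, lay below the filter and was low on that same array, at 3.01 and 2.92 with siControl and 2.88 and 0.80 with siLSD1.

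SOX2, the progenitor factor of the SOXB1 group, lies within an intron of the non-coding gene SOX2-OT. Probe set 228038_at read 6.62 and 6.13 with siControl and 6.19 and 6.11 with siLSD1. Only siControl replicate 1 was high, and the difference of -0.22 (95% interval -0.92 to 0.47) became 0.021 without that array. Probe set 213721_at read 4.30 and 4.22, then 4.26 and 4.22, a difference of -0.024 whose 95% interval reached from -0.95 to 0.91. Neither reading was higher or lower beyond the spread between arrays. Below the filter, 213722_at read 3.66 and 1.39, then 0.82 and 0.85, and 214178_s_at read 3.17 and 2.88, then 3.86 and 2.68. The first was lower on both siLSD1 arrays, with most of the difference again on siControl replicate 1.

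**Figure D3:**
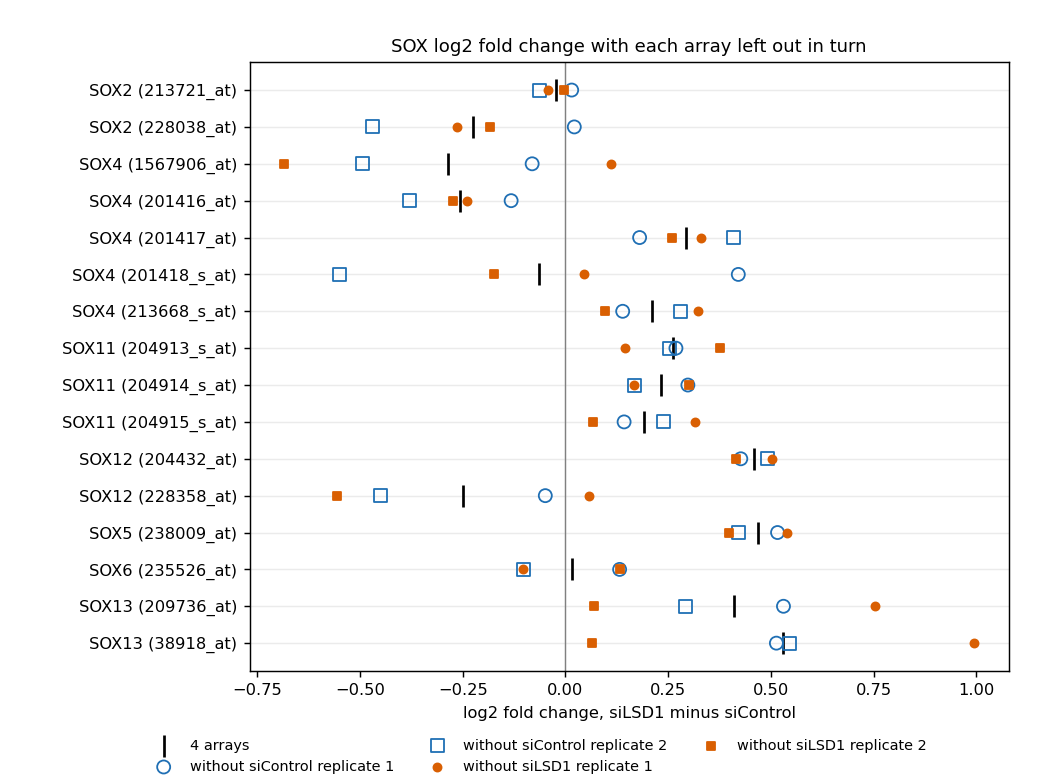
Log2 fold change of the 16 SOX probe sets above the filter with all 4 arrays (black bar) and with each array left out in turn (open blue for siControl, filled orange for siLSD1, circle for replicate 1, square for replicate 2). The values of 6 probe sets cross 0 when 1 array is left out, and those of the other 10, among them all 3 of SOX11, stay on one side. Probe sets with separated groups, 9 of the 16 and all 3 of SOX11 among them, cannot cross 0 in this way.

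Some of the SOX values depended on a single array. Leaving out 1 array turned the sign of 6 of the 16 tested probe sets and moved 13 of the 16 by more than 1.5 times or turned them. In the 9 with separated groups the sign could not turn in this way, and 32.3% of all tested probe sets were separated. How many of all tested probe sets turned or moved was not counted. The sign held for 10 under every alternative, from SOX4 (201416_at, 201417_at and 213668_s_at), SOX5, SOX11, SOX12 (204432_at) and SOX13. With single arrays left out, the 3 whose value moved by no more than 1.5 times were SOX5 238009_at, SOX12 204432_at and SOX11 204914_s_at, and the last of these went from 0.23 to 0.13 under the deposited scaling.

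SOX10, the glial and pigment cell factor, was below the filter on all 4 arrays in both of its probe sets, and its values have no test in the comparison above. Probe set 209842_at read 1.27 and 2.01 with siControl and 3.23 and 2.77 with siLSD1. Probe set 209843_s_at read 1.68 and 1.66, then 2.85 and 2.39. Both probe sets were higher on both siLSD1 arrays, by 1.36 and 0.95 on the log2 scale. Among probe sets below the filter 33.2% were separated in some direction and 16.5% upward, and 36.2% differed at least 2-fold, so such differences were frequent at this brightness. Of the 2133 genes with at least 2 probe sets and none above the filter, 49 had all of them separated and higher, or 2.30%, a count made after the SOX10 values were seen. It includes genes with more than 2 probe sets, and the share among genes with exactly 2, like SOX10, was not counted. When all probe sets were fitted without the filter, limma gave an unadjusted p of 0.115 and 0.245 and an adjusted p of 0.986 for both. With 16 added to every signal before the log, which damps dim probe sets, the differences were 0.33 and 0.21.

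SOX8 was represented by 1 probe set, 226913_s_at, also below the filter on every array. It read -0.33 and -1.07 with siControl and -0.25 and 1.12 with siLSD1. The groups were separated, but siLSD1 replicate 1 lay only just above siControl replicate 1. The difference of 1.14 was 0.074 with 16 added to the signal.

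**Figure D4:**
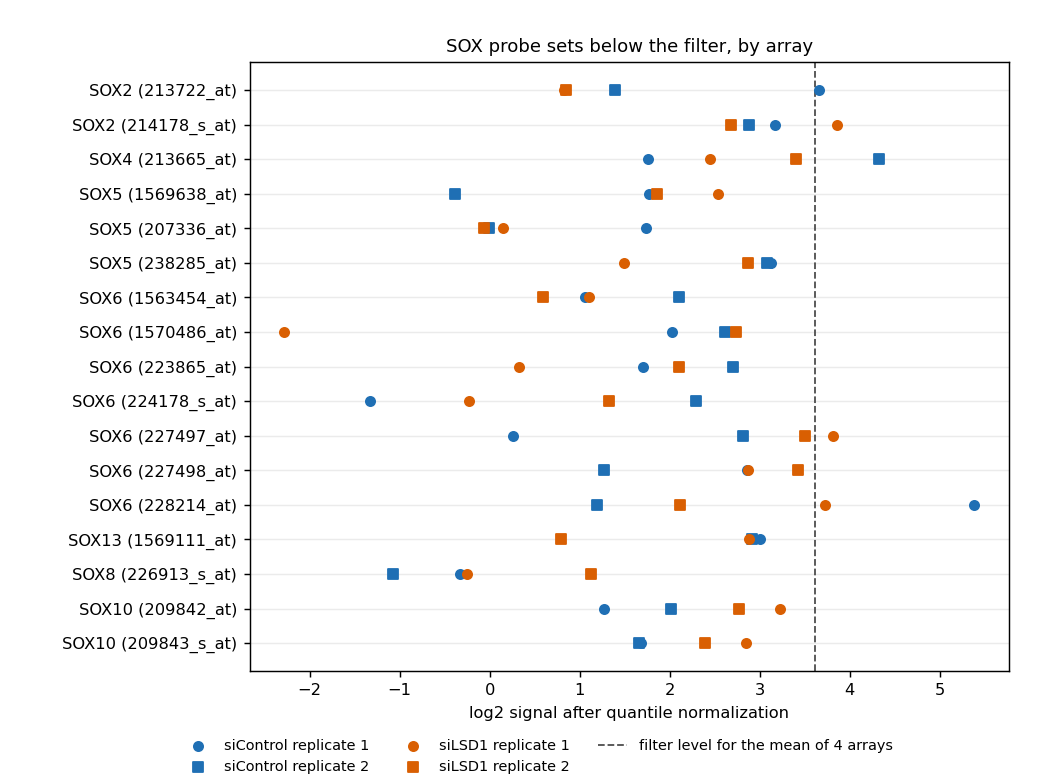
Log2 signal of the 17 SOX probe sets below the filter on each array (horizontal axis, log2 units after quantile normalization), with the filter level of 3.62 for the mean of the 4 arrays as a dashed line. Circles are replicate 1 and squares replicate 2, siControl in blue and siLSD1 in orange. The SOX10 rows have both orange points above both blue points and all 4 points below the line.

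Across the 17 SOX probe sets below the filter, 9 had separated groups, 6 higher and 3 lower in siLSD1 cells. At least 2-fold differences in one direction or the other were found in 8. Of all 16436 probe sets below the filter 33.2% were separated, 16.5% upward, and 36.2% differed at least 2-fold. With all 33 probe sets in 1 fit and no filter, 18 had a higher and 15 a lower mean and the median difference was 0.072.

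Partner and target genes of SOX factors, other SOX genes, markers of cell types and housekeeping genes were read from 11 lists. In each of these 11 the median difference changed sign when at least 1 of the 4 single arrays was left out. A gene named from a list is read by 1 tested probe set, the one with its smallest unadjusted p or highest mean. Further probe sets of such a gene can differ and are given only for SOX7 and SOX9. The genes on which SOX10 and its relatives act in glia gave few readings. Of 20 genes in a list of Schwann cell, glial and SOX10 target genes, 17 had a probe set of their own in the annotation used and 6 had one above the filter. S100B, ERBB3, CDH19, GFAP, AQP4, MIA and MAG were among the 11 below it. The 9 tested probe sets, 5 higher and 4 lower, had a median difference of 0.077 beside -0.0043 over the table, and 0 passed. Its sign turned when siControl replicate 2 was dropped, to -0.15, when siLSD1 replicate 1 was dropped, to -0.047, and when siLSD1 replicate 2 was dropped, to -0.00042. It also turned, to -0.11, with no filter on low values. At an unadjusted p under 0.05 limma gave 1, the receptor tyrosine kinase RET, which is also a gene of sympathetic neurons. RET read 8.65 and 8.55 with siControl and 8.99 and 9.13 with siLSD1. CNP, a myelin enzyme, had a difference of 0.098 with overlapping groups, and the endothelin receptor EDNRB one of -0.59 with overlapping groups.

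Neuronal genes downstream of SOX4 and SOX11 were measured more fully. Of 15 listed genes, 13 had tested probe sets, 30 in all, with 18 higher and 12 lower means and a median difference of 0.050. Leaving out siControl replicate 2 turned this value to -0.062, and leaving out siLSD1 replicate 2 took it to 0.00033. It came to 0.13 when siControl replicate 1 was dropped. Separated groups were found in 7 upward and 4 downward, and 0 passed in limma. MAP2, a microtubule-associated protein of dendrites, had a difference of 0.33 (unadjusted p 0.0415 in limma), NEFL, the light neurofilament, one of 0.47 and STMN1, a tubulin-binding protein, one of 0.32. These were the 3 genes of the list with the smallest p, so their direction follows in part from how they were picked.

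Progenitor genes of the kind that SOX2 maintains were split. Of 18 listed genes, 13 had tested probe sets, with 12 of these 26 probe sets higher, 14 lower, 0 called and a median difference of -0.013. CCND1, the cell cycle regulator cyclin D1, read 6.81 and 8.39 with siControl and 8.87 and 9.10 with siLSD1. The low reading was on siControl replicate 1. MSI2, an RNA-binding protein of progenitors, had a difference of 0.69 and TEAD2, a factor of the Hippo pathway and a SOX4 and SOX11 target, one of -0.67. The unadjusted p in limma was 0.0189 for CCND1, 0.0406 for MSI2 and 0.047 for TEAD2. CCND1, MSI2 and TEAD2 had the smallest p of the list, so their differences follow in part from how they were picked.

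Among partner factors and cofactors of SOX proteins, 14 of 25 listed genes had tested probe sets. Their 42 probe sets, 18 higher and 24 lower, had a median difference of -0.042, with 6 separated upward, 5 downward and 0 called. TLE1, a corepressor of the Groucho family, read 6.59 and 6.25 with siControl and 5.95 and 4.97 with siLSD1 by 203220_s_at. This was a difference of -0.96 with an unadjusted p of 0.0421 in limma, the smallest p among its tested probe sets. TCF7L2, the Wnt pathway factor, had a difference of -0.53 in a probe set of the type that may cross-hybridize, and POU3F2, a POU partner of SOX factors in neural cells, one of -0.57. TLE1, TCF7L2 and POU3F2 were picked for the smallest p in the list, so their differences follow in part from that choice.

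Cartilage genes, on which SOX5 and SOX6 act together, had 9 tested probe sets from 7 of 11 listed genes, 6 higher, 3 lower, 0 called and at a median difference of 0.062. COL11A1, a fibrillar collagen, had a difference of 0.27 (unadjusted p 0.4 in limma), MATN3, a matrilin of cartilage, one of 0.062 and COL9A2, a collagen IX chain, one of 0.21.

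Of the 10 other SOX genes listed, SOX7, SOX9 and SOX15 had probe sets above the filter. Their 5 tested probe sets had a median difference of 0.29, with 4 higher and 1 lower and 0 calls. The median was -0.07 without siControl replicate 2. SOX9, a SOXE factor of glia and cartilage, read 5.59 and 4.86 with siControl and 5.88 and 5.93 with siLSD1 by 202935_s_at, the one probe set of the 5 with separated groups. The other SOX9 probe set, 202936_s_at, read 6.77 and 5.13, then 6.15 and 6.34. SOX15 had a difference of 1.12 in a probe set of the type that may cross-hybridize. It came from a low reading of 2.39 on siControl replicate 1. SOX7, an endothelial factor, differed by 0.23 in 228698_at and by -0.11 in 224013_s_at, both with overlapping groups.

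Markers of the labelled cell type were mostly above the filter. Of 12 neuroblastoma and noradrenergic markers 10 had tested probe sets, with a median difference of -0.020 over 15 probe sets, 7 higher and 8 lower. Tyrosine hydroxylase (TH) lay below the filter. STMN2, a stathmin of neurons, read 12.13 and 12.10 with siControl and 12.08 and 12.08 with siLSD1, GATA3 differed by 0.15 and ISL1 by -0.056.

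The summed linear signal of the fibroblast markers was lowest and highest on the same arrays as the SOX median. So were the summed signals of the other SOX, neuronal, glial and cartilage lists, but not those of the remaining lists. These are unlike measures, since the sums include probe sets below the filter and weigh bright ones most. The SOX median is a log2 deviation over tested probe sets, at -0.069 and -0.13 with siControl. Of 10 fibroblast genes 8 had tested probe sets, 17 in all, with 13 higher and 4 lower and a median difference of 0.23. Separated groups were found in 7 upward and 1 downward, 2 had an unadjusted p under 0.05 in limma, both higher, and 0 passed. Dropping siControl replicate 2 turned the list value to -0.028, and dropping siControl replicate 1 raised it to 0.54. Their summed signal over 35 probe sets was 2686 and 2013 with siControl and 2625 and 3089 with siLSD1, lowest on siControl replicate 2 and highest on siLSD1 replicate 2. Among them PDGFRA, a receptor of growth factors, read 9.57 and 9.11, then 9.39 and 9.69, COL3A1, a fibrillar collagen, differed by 0.41 and LUM, a matrix proteoglycan, by 0.23, while FAP and POSTN lay below the filter. The part of these markers in the SOX values was not tested.

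Of 6 melanocyte markers 4 had tested probe sets, with a median of -0.12 over 5 probe sets, of which 2 were higher and 3 lower. MITF differed by -0.12, TYR by -0.58 and TYRP1 by -0.54. Of 10 blood and endothelial markers only PECAM1 (-0.084) and HBB (0.26) had tested probe sets, while PTPRC, CD3E, CD14, CDH5 and VWF lay below the filter. Housekeeping genes had 20 tested probe sets, 7 higher and 13 lower, with a median of -0.011, with ACTB at 0.17, PPIA at -0.014 and GAPDH at 0.011.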

How the data were processed

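The deposited values were 1 log2 signal per probe set and array, for 54675 probe sets. The sources used here name neither the authors' summary method nor their software. Base 2 was found from the values, since their antilogs had a trimmed mean of 100.0 on each array. Array medians were 4.27 and 4.17 (siControl) and 4.09 and 4.01 (siLSD1), so arrays were quantile normalized, which would remove an overall shift between groups.

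Gene symbols came from the platform annotation of 2016. Probe sets with exactly 1 symbol (41091) and a mean at or above the 40th percentile (24655) were fitted in R 4.3.3 with limma 3.58.1 (lmFit, eBayes with a mean-variance trend, two-sided, Benjamini-Hochberg over all tested, threshold 0.05). The moderated test had 7.28 degrees of freedom. With 2 arrays per group, the smallest p of an exact permutation test is 0.333. The fit was tested on simulated data. Precision is limited by the number of arrays.

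The members and gene lists were chosen with earlier results of these data known. Named genes were all SOX probe sets, KDM1A, the 3 nearest profiles, and in each list the 3 genes with the smallest unadjusted p or, for glial, cartilage, housekeeping and cell type lists, the highest mean. RET, CNP and EDNRB were thus named by level, as were COL11A1, MATN3 and COL9A2. Alternatives covered scaling, filter, offset, 1 probe set per gene, trend, the replicate number and each array left out.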

Additional observations from a re-analysis of the deposited data

How the results depend on the processing

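With 4 arrays, limma called 0 probe sets of the table and 0 SOX probe sets under each alternative. With single arrays left out, calls over the table ranged from 0 to 5. There were 5 without siControl replicate 2 (RARS1, RUVBL1, USP48, SELENOH and ZNF117, all higher) and 1 without siLSD1 replicate 1 (an HSP90AB1 probe set, lower), and 0 of them were SOX probe sets. The SOX median of 0.20 was 0.31 under median centring over all probe sets, where the median of all tested probe sets was 0.16, and 0.072 without a filter. It ranged from 0.067 to 0.20 with single arrays left out. SOX4 201418_s_at turned from -0.065 to 0.075 under median centring. With single arrays left out it ranged from -0.55 to 0.42, SOX4 1567906_at from -0.68 to 0.11, SOX2 213721_at from -0.062 to 0.015, SOX2 228038_at from -0.47 to 0.021, SOX12 228358_at from -0.56 to 0.057 and SOX6 235526_at from -0.10 to 0.13. The KDM1A difference of -1.32 kept its sign and its side of the threshold, between -1.14 and -1.39.

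With the replicate number as a block, limma called 0 probe sets, 3 SOX probe sets had an unadjusted p under 0.05 as without it, and the SOX median stayed at 0.20. The deviations of same-numbered arrays correlated at -0.067, and the titles share a number only. Where an arm kept 1 array, it was assumed to vary like the other. The cause of these shifts was not tested. The 95% intervals of the SOX differences, unadjusted for the number of probe sets tested, extended by a median of 0.66 (log2) to each side. Differences of 1.5-fold were thus mostly not detectable. By the adjusted p even the KDM1A difference of -1.32 did not pass, so larger SOX differences could also have been missed.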
